A study of Mus musculus with 14 samples.

Results

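In basal cells of newborn mouse epidermis, 308 regions outside promoters carried H3K27me3 and no peak of Ring1b or of H2AK119ub. They were chosen from the deposited peak lists for chromosomes 1 to 19. Peaks of the 2 H3K27me3 replicates that shared at least 1 bp were merged, and 2813 merged regions held peaks of both replicates. Of these, 619 overlapped no peak in any of the 4 lists of Ring1b and H2AK119ub. A further condition removed the 311 of these 619 that held a peak that the authors classed as promoter, which left 308 regions, 10.9% of all shared H3K27me3 regions (95% Wilson interval 9.85 to 12.2). With replicate 1 as the only H3K27me3 list, 2105 regions would meet the rule, since replicate 2 called fewer peaks. Because the lists of all 3 antibodies chose these regions, their lengths, enrichments and distances are given as a description and were not tested.

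The study mapped Polycomb repressive complex 1 in the progenitors of the skin epithelium by chromatin immunoprecipitation and sequencing (ChIP-seq). Chromatin came from back skin at postnatal day 0 of mice that carried a Krt14-RFP and a Krt10-H2B-GFP reporter. Cells were sorted as Sca1-positive, RFP-high and GFP-negative, and all samples shared this genotype, age and gate. The labels describe 7 groups of 2 replicates: Ring1b (6000000 cells per immunoprecipitation), H2AK119ub and H3K27me3 (400000 each), H3K27ac, H3K4me1, H3K4me3 and input chromatin. Lists of Ring1b, H2AK119ub and H3K27me3 were read, and the other 8 samples were not analysed here. The labels do not state that replicates came from separate animals, so the spread between replicates may be technical.

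H3K27me3 is written by Polycomb repressive complex 2 and marks silent developmental genes. Ring1b is the ubiquitin ligase of Polycomb repressive complex 1 and writes H2AK119ub. Both complexes are best known from promoters rich in CpG dinucleotides, where the subunits of each complex can bind the mark of the other. H3K27me3 also spreads over gene bodies and the space between genes, and in the epidermis it holds genes of other lineages and of later layers silent.

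Although none of these regions held a peak of the promoter class, 29 of them contained a gene start from the RefSeq start sites available, of a protein-coding gene in 8 cases. Sequences of 300 bases around these starts (250 before and 50 after, RefSeq, GRCm38.p6) were matched for 38 start sites of 30 genes. The 4 shown here are the starts in the most enriched of these regions (Dab1), with the most CpG (Osbp2), of a potassium channel subunit (Kcnab1) and of the long noncoding RNA whose region ranked highest without a protein-coding start (1700019L22Rik). They were chosen after their values were seen. Each is written 5′ to 3′ on the strand of the gene, with every CG dinucleotide in capitals.
Dab1, chr4:103619250-103619549, plus strand: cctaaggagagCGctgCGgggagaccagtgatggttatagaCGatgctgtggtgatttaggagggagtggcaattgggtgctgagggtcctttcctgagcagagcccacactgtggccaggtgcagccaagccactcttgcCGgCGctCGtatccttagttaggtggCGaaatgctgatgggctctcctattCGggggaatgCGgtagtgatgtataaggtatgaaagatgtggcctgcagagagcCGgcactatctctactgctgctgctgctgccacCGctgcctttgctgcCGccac
Osbp2, chr11:3774619-3774918, minus strand: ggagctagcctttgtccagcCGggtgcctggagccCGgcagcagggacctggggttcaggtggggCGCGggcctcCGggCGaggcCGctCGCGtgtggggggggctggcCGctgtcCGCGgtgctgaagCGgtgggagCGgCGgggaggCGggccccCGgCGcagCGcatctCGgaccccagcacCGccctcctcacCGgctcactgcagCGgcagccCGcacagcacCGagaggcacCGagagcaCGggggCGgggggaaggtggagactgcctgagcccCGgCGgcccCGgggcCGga
Kcnab1, chr3:64948962-64949261, plus strand: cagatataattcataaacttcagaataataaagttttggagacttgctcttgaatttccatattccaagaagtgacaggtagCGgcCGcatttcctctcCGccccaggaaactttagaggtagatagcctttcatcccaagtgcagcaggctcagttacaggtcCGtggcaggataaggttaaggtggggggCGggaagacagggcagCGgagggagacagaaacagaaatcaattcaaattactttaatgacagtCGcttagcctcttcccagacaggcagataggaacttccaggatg
1700019L22Rik, chr8:50917384-50917683, minus strand: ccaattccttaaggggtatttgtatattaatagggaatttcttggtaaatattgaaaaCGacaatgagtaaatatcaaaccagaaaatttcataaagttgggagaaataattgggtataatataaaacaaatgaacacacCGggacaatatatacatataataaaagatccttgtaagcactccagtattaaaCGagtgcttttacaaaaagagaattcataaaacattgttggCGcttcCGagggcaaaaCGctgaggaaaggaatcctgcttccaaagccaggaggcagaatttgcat

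The Dab1 start held 12 CpG, that of Osbp2 32, that of Kcnab1 7 and that of 1700019L22Rik 6. Over all 38 starts the median was 6 CpG, with 16 at the 8 protein-coding starts and 5 at the 30 starts of long noncoding RNAs. A CpG ratio, the CpG observed against the number expected from the C and G content of the window, reached 0.6 in 8 of the 38 windows (21.1%), against 36.4% of all 31396 start windows of these chromosomes. Split by kind of gene, the ratio reached 0.6 at 50.0% of the protein-coding starts in the regions and at 48.9% of all protein-coding starts. For long noncoding RNAs the shares were 13.3% in the regions and 14.1% of all such starts. Within each kind of gene the starts inside these regions were therefore close to the background, and most of them were noncoding. Starts inside promoter regions with H3K27me3 alone had a median of 13 CpG (289 windows, 42.2% at a ratio of 0.6 or more). Non-promoter regions that met Ring1b and H2AK119ub in all 4 lists held starts with a median of 10 CpG (66 windows, 42.4%), and promoter regions that met them had a median of 17 (906 windows, 60.6%). The start sites available include none of chromosome 18, where 11 of the regions lie, and they are not complete elsewhere. By gene span, regions also covered the 5′ end of further genes, including Etl4, Gadl1, Kcnip4, Pde1c, Sgcd, Erich3, Eno4 and Jakmip1. These are not among the 8 protein-coding starts. Of those 8, the starts of Osbp2, Mtus2 and Dlg4 lay inside the span of the gene and not at its 5′ end.

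**Figure D1:**
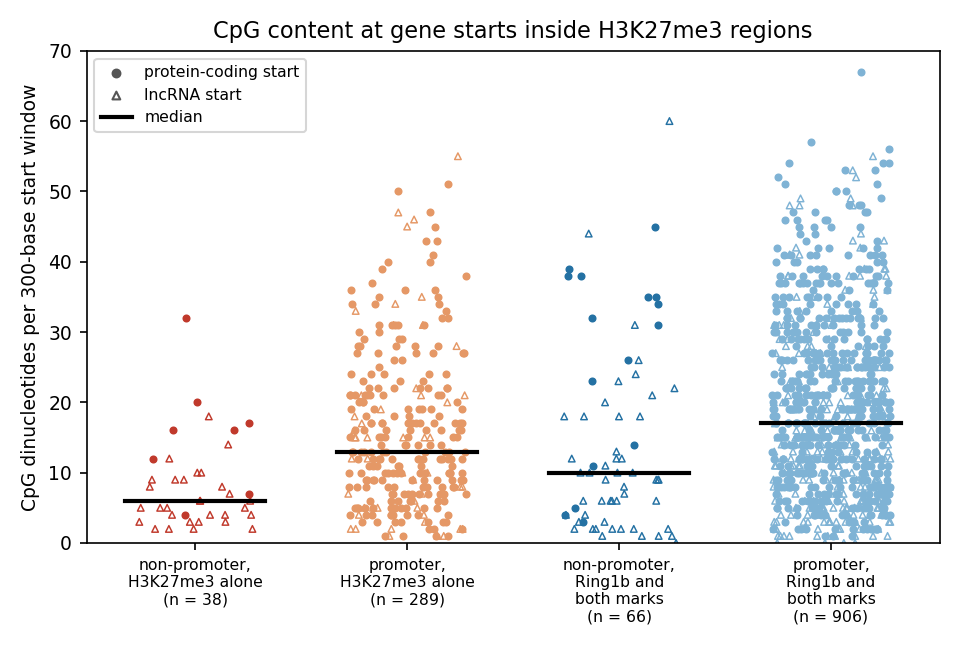
CpG dinucleotides per 300-base start window (vertical axis) for gene starts inside 4 classes of H3K27me3 region (horizontal axis), 1 point per start, with filled circles for protein-coding and open triangles for long noncoding RNA starts and a bar at the median. Non-promoter regions with H3K27me3 alone had the lowest pooled median, 6 CpG, and 30 of their 38 starts were noncoding. At protein-coding starts their median was 16, against 13.5 in promoter regions with H3K27me3 alone.

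The regions were short and weakly enriched among H3K27me3 regions. Their median length was 5510.5 bp (range 2461 to 24831), against 7428 bp for the other 2505 shared regions and 11150 bp for non-promoter regions with Ring1b and H2AK119ub in all 4 lists. A longer region has more room to meet a peak that the rule bars, so length moves with the rule, and the part of the rule was not tested. Together they covered 2.06 Mb, 7.08% of the length of all shared regions. Enrichment was taken as the ratio of deposited ChIP reads to deposited input reads in the peak of each replicate. It was not scaled for library size, so the replicates stand on different scales and each is read on its own. In replicate 1 the median ratio was 8.81 (range 4.02 to 27.5) in the regions and 11.5 in the other shared regions. In replicate 2 it was 3.71 (1.72 to 7.73) in the regions and 4.92 in the others. Promoter regions with H3K27me3 alone had medians of 10.8 and 4.77, and a median length of 5358 bp. The promoter regions that also lacked Ring1b and H2AK119ub were as short, with higher ratios in both replicates.

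The lower ratio came with fewer ChIP reads, while input reads were close. The regions had 104 and 80.3 ChIP reads per kb in replicates 1 and 2, against 148 and 118.5 in the other shared regions. Input reads per kb were 12 and 21.7 in the regions, against 11.5 and 22.3 in the others. A region rested on a median of 584 and 243 ChIP reads and of 63 and 64 input reads, so its ratio was limited mainly by the input count. In 207 of the 308 regions (67.2%, Wilson interval 61.8 to 72.2) the ratio was below the median of all shared regions in both replicates, and in 43 it was above it in both. Ranked over both replicates, the median region stood at percentile 22.6 of all shared regions, and 92 lay in the bottom 10% and 0 in the top 10%. No region had a deposited p-value above 0.05 in either replicate.

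**Figure D2:**
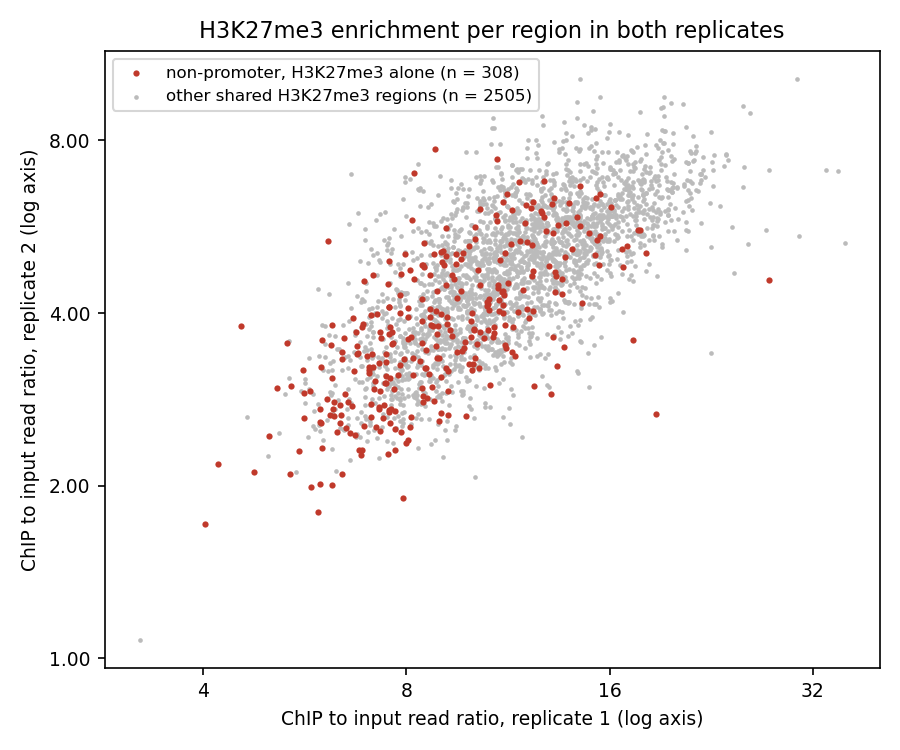
H3K27me3 ChIP to input read ratio of each shared region in replicate 1 (horizontal, log axis) and replicate 2 (vertical, log axis), with the 308 non-promoter regions with H3K27me3 alone in red and the other 2505 in grey. The red points lie towards the lower left of the grey cloud but overlap it, with medians of 8.81 and 3.71 against 11.5 and 4.92.

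The replicates ranked the regions alike by ratio, with a Spearman's rho of 0.67 over 308 regions, which are not independent replicates. They differed in how much of each region was called. The peak of replicate 1 was the longer one in 304 regions, and the median called length was 5446.5 bp in replicate 1 and 3106.5 bp in replicate 2. Replicate 2 covered under 50% of the region in 92 regions (29.9%), against 16.8% of the other shared regions. In promoter regions with H3K27me3 alone, which were about as short, that share was 21.2%. The called lengths of the 2 replicates had a rho of 0.56 in the 308 regions, 0.86 in all other shared regions and 0.68 in those promoter regions. The boundaries of the regions are therefore mostly those of replicate 1. Without replicate 1 the median length was 3150 bp, and with replicate 1 alone, where many shorter peaks qualified, 3471 bp.

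**Figure D3:**
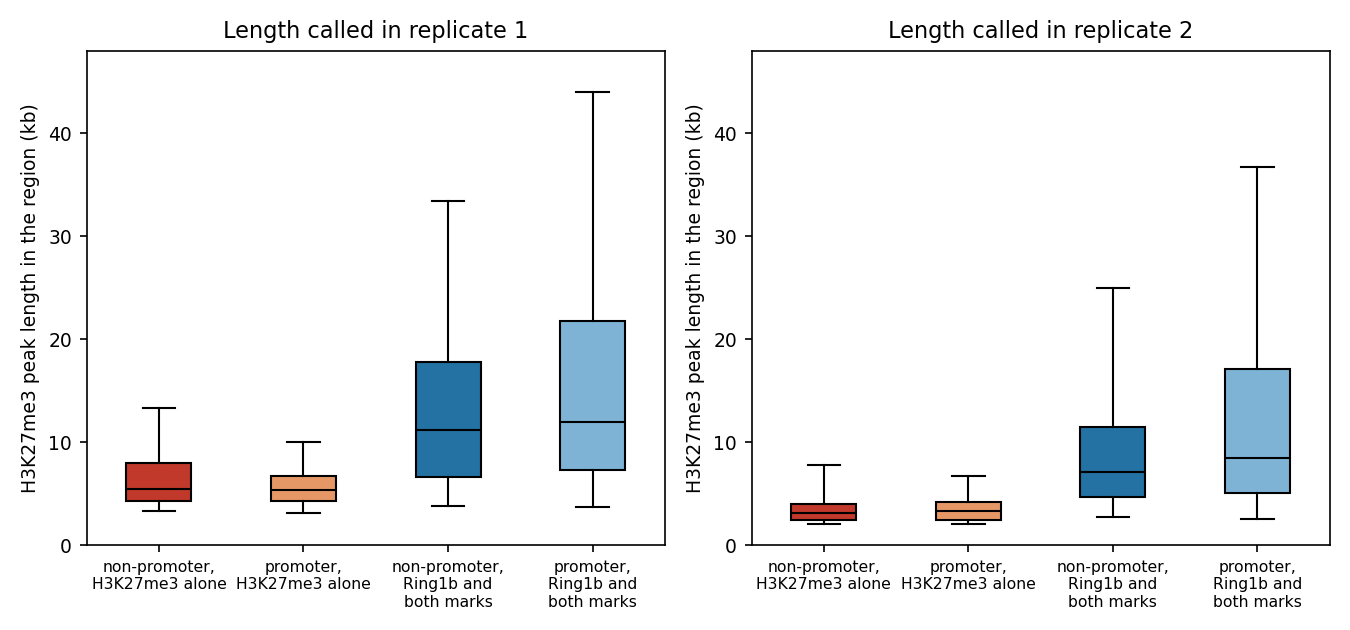
Length of the H3K27me3 peak called in each region, in kb, for replicate 1 (left) and replicate 2 (right) in 4 classes of shared region; boxes give the quartiles and median, whiskers the 5th and 95th percentiles. Both classes with H3K27me3 alone were short in both replicates, and the classes with Ring1b and both marks were longer. The classes are set by overlap with peaks, for which a longer region has more room.

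The most enriched regions lay at genes of several tissues. The highest mean rank belonged to a region between Gm572 and Casz1, a zinc finger transcription factor (chromosome 4, 148769923 to 148773484, mm10), with ratios of 15.5 in replicate 1 (526 ChIP and 34 input reads) and 6.44 in replicate 2 (348 and 54 reads). The next covered the RefSeq start of Dab1, the adaptor of reelin signalling in migrating neurons (chromosome 4, 103617335 to 103623229), with ratios of 15.3 and 6.36. Both stood well above the medians of 8.81 and 3.71. The 12 highest regions had ratios of 12.8 to 18.1 in replicate 1 and 5.10 to 6.80 in replicate 2, and 10 of the 12 overlapped a protein-coding gene.

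Among these 12, Jph2, which couples membranes in heart muscle, had ratios of 14.5 and 6.66 (chromosome 2, 163337516 to 163342189). Dysf, which repairs the muscle membrane, had 17.6 and 5.58 over a region of 9563 bp, the longest of the 12. Unc45b, a chaperone of myosin, had 13.2 and 6.34. Iqsec3 and Igsf21, proteins of inhibitory synapses, had 16.1 and 6.12, and 17.8 and 5.59. Rsph6a, a radial spoke protein of sperm, had 13.9 and 6.23. Wscd2 had 12.8 and 6.80, and Vstm2l 13.2 and 6.2. A further region lay between 1600014C23Rik and Vegfa, the endothelial growth factor, with 14.3 and 5.89. All 12 were above the medians of the regions in both replicates, as their rank requires. A region in Ctnnd2, a catenin of neurons, had the highest ratio of replicate 1, 27.5, but rested on 13 input reads there and had 4.57 in replicate 2; it was named after its value was seen.

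The longest regions were less enriched than the median of all 308 in most cases, with median ratios of 7.58 and 2.95 over the 12 longest. The longest, 24831 bp, lay between Atp5g3 and Lnpk (chromosome 2, 73975741 to 74000571), in the gene desert beside the Hoxd cluster that is known for limb enhancers. Its ratios were 5.75 and 2.93, and replicate 2 called only 2267 bp of it. A region of 20283 bp between Sem1 and Dlx6, a homeobox gene of jaw and limb, had 5.95 and 2.02, with 2488 bp called in replicate 2. In contrast, replicate 2 called 15932 bp of the 22260 bp in Zfhx3, a zinc finger homeobox gene (chromosome 8, 108360922 to 108383181), where the ratios were 9.0 and 3.98. Regions of 22592 bp in Atp8a2, a phospholipid flippase of neurons, 21845 bp between Alcam and Zpld1, 18646 bp in Ano4, an anoctamin, and 18015 bp between Sik2 and Layn had ratios of 6.23 to 7.60 and 2.57 to 3.05. The other 5 of the 12 longest were in Dlgap3, a postsynaptic scaffold (17274 bp), between Rbm19 and Lhx5 (15928 bp), in the kinase gene Tnik (15753 bp), in the growth factor gene Tgfb2 (14387 bp) and in Dab1 (14191 bp). Over the 308 regions, length and mean ratio had a rho of -0.29, where the other 2505 shared regions had 0.22. By class, that rho was 0.39 in promoter regions with Ring1b and both marks and 0.09 in non-promoter regions with them. It was 0.06 in promoter regions with H3K27me3 alone and -0.06 in the remaining shared regions.

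The 6 lowest regions had ratios of 4.02 to 5.78 in replicate 1 and 1.72 to 2.29 in replicate 2. The lowest, at H60b, a ligand of a receptor of natural killer cells, had 4.02 (779 ChIP and 194 input reads) and 1.72 (254 and 148 reads). H60b belongs to a family of similar genes, and the handling of reads that match several places is not stated, so this value is uncertain. Fhit, a tumour suppressor in a fragile site, had 4.2 and 2.18. Mef2c, a transcription factor of muscle and neurons, had 5.78 and 1.99. The other 3 lay between Vmn2r90 and Spaca6, between Slc4a3 and Epha4, an ephrin receptor, and between Bbs2 and Mt4, a metallothionein of stratified epithelia.

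The authors' location class put the regions almost evenly in gene bodies, near genes and between genes. In replicate 1, 112 were of class gene body (36.4%), 86 of class distal and 110 of class intergenic, and in replicate 2 the counts were 112, 85 and 111. The median ratio was 9.21 and 3.74 in gene bodies, 8.73 and 3.76 in distal regions and 8.44 and 3.57 in intergenic ones, differences much smaller than the range within each class. By RefSeq spans, 134 regions (43.5%, Wilson interval 38.1 to 49.1) overlapped a protein-coding gene, and 61 (19.8%) overlapped a long noncoding RNA gene. That share was 24.4% in promoter regions with H3K27me3 alone, which were of about the same length, and 28.8% in non-promoter regions with Ring1b and both marks, which were longer. Some of the regions that the authors classed as intergenic, such as those at Dab1 and Zfhx3, overlap a RefSeq gene, the one at Dab1 across its start. Of the 919 microRNA hairpins of RefSeq on these chromosomes, 0 lay in the regions, and 0 lay in the non-promoter regions with Ring1b and both marks. Promoter regions with H3K27me3 alone held 3, promoter regions with Ring1b and both marks 27, and the remaining shared regions 10. The regions cover only 2.06 Mb, so their count of 0 is a description and does not set them apart.

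The regions overlapped 120 of 20661 protein-coding genes (0.581%), or 522 genes without H3K27me3 replicate 2 and 205 with a limit of 0.001 on the deposited p of all peaks. These were long genes, with a median span of 107943.5 bp against 17491 bp for all protein-coding genes, and a long span has more room to hold a region. Along the 94 genes with a known strand, cut into 3 equal parts, the middle of the overlap fell in the first part in 33 genes, in the middle part in 28 and in the last part in 33, which are about equal counts. Only 4 genes (0.0194%) had at least 50% of their span inside the regions: Gm17778, H60b, Fam221b and Atp6v1g3, a subunit of the vacuolar proton pump. The genes with the most length inside were Zfhx3 (35807 bp in 2 regions), Ano4 (32575 bp in 2), Atp8a2 (22592 bp in 1), Cdh22, a cadherin (21171 bp in 2), Tnik (18853 bp in 2) and Dab1 (17921 bp in 2). Those lengths were 17.2% of the span of Cdh22 and 1.59% to 8.22% of the spans of the other 5. Of the 120 genes, 16 held several regions.

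Many of these genes carried Polycomb marks at a promoter elsewhere. H3K27me3 was listed at a promoter of the gene in both replicates for 49 of the 120 genes (40.8%), against 7.42% of all protein-coding genes. Ring1b was listed at the promoter in both replicates for 26 (21.7%, against 7.86%), and H2AK119ub for 24 (20%, against 5.9%). In all 6 lists a promoter row named 18 of the 120 (15.0%, against 2.69%), and no list did so for 47 (39.2%, against 77.2%). These shares were not tested, and the 120 genes also differ from all genes in length. Genes under non-promoter regions with Ring1b and both marks had Ring1b at a promoter in 16 of 67 cases (23.9%), H2AK119ub in 28.4% and H3K27me3 in 32.8%.

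**Figure D4:**
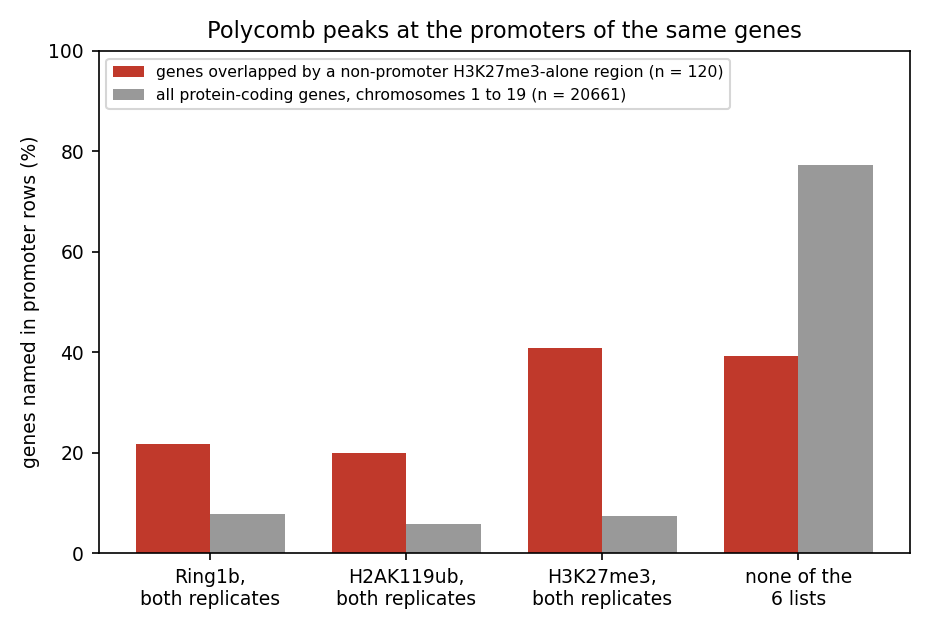
Share of genes (vertical axis, %) named in promoter rows of Ring1b, H2AK119ub or H3K27me3 in both replicates, or of none of the 6 lists, for the 120 genes overlapped by a non-promoter H3K27me3-alone region (red) and for all 20661 protein-coding genes of chromosomes 1 to 19 (grey). The red bars are higher for each antibody (21.7%, 20% and 40.8%) and lower for none (39.2%).

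The 18 genes with all 3 at a promoter included transcription factors (Ebf1, Ebf2, Cux2, Tshz3 and Zfhx3), receptors (Crhr1, Grik3 and Ror2, a Wnt receptor) and a semaphorin (Sema5b). By the rule, the region with H3K27me3 alone does not overlap the marked promoter, and its distance from the nearest Ring1b or H2AK119ub peak varied, down to 357 bp in Tgfb2. In Sema5b it stood towards the 3′ end (chromosome 16, 35657727 to 35661439), 113478 bp from the nearest Ring1b or H2AK119ub peak, with ratios of 16.7 and 5.17. In Col13a1, a transmembrane collagen, the distance was 37960 bp and the ratios 16.8 and 4.82. In Ror2 the region of 13268 bp lay 3542 bp from such a peak, with lower ratios of 6.2 and 3.81. In Dab1 the authors' promoter rows refer to another place in the gene, since its nearest Ring1b peak was 497689 bp from the region at the RefSeq start. The remaining genes of the 18 were Cacna1a, Cdh22, Dab1, Gxylt2, Rnf220, Tgfb2, Tnik and Zdbf2. Those of the 18 that no other rule names were named because they fill this count.

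Lists of gene families and tissue genes were set beside the regions; they held 19 overlapped genes, or 101 without H3K27me3 replicate 2. Genes of neuronal signalling supplied most of the 19: 4 of 95 potassium channel genes, 3 of 39 sodium and calcium channel genes, 3 of 48 receptors of glutamate, GABA and glycine, 3 of 60 genes of neuronal adhesion and synapses and 2 of 67 axon guidance genes. These shares, 2.99% to 7.69%, stand beside 0.581% of all genes, but the median span of 4 of these lists is over 50 kb, so length moves with the count and its part was not tested. Any shared H3K27me3 region overlapped 38.8% to 66.7% of the same lists, against 10.5% of all genes. Among potassium channel genes, Kcng2, a modifier subunit, had ratios of 15.2 and 5.04, the highest of the 4. Kcnip4, a calcium-binding partner of channels, had 11.9 and 4.39. Kcnb2 had 9.18 and 3.94, and Kcnab1, whose start was shown above, 8.85 and 4.03. Cacna1a, the pore of a presynaptic calcium channel, had 11.3 and 6.46 in the higher of its 2 regions. The sodium channel gene Scn1a had 9.97 and 3.88, and Cacng7 9.72 and 3.47. Against the medians of 8.81 and 3.71, Cacng7 was lower in replicate 2. The kainate receptor genes Grik2 and Grik3 had 9.51 and 4.25, and 7.62 and 3.71. Slit3, a repellent of growing axons, had 13.0 and 4.83, Nrg1 10.1 and 5.66, Opcml 9.62 and 4.96, and Cntn1 8.11 and 2.53. The other listed genes were Cdh22, Zfp536, Col13a1 and Fgf6, 1 each of 90 cadherins, 382 Zfp genes, 42 collagens and 20 Fgf ligands.

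Lists of developmental transcription factors and of skin genes had no overlapped member. The lists are not complete, and transcription factor genes outside them were overlapped, such as Mef2c, Ebf1, Ebf2, Cux2 and Tshz3. With 0.581% of all protein-coding genes overlapped, fewer than 1 gene is the background for each of these lists, so these counts of 0 do not set the lists apart. The transcription factor genes are also short, with median spans of 3737 bp (Hox) to 9798 bp (muscle and mesoderm), so a region over one would often hold its promoter, which the rule bars. Of 62 neural, 52 muscle and mesoderm and 22 endoderm transcription factors, 0 were overlapped, although shared H3K27me3 regions of any kind overlapped 58, 45 and 18 of them. For Hox genes the counts were 0 of 39 against 28 of 39. Genes of the basal epidermis were at 0 of 29, with 1 met by any shared region, and genes of the suprabasal and cornified layers at 0 of 43, with 4. Hair follicle genes stood at 0 of 34, with 14, and those of Merkel cells at 0 of 23, with 14. Lists of melanocyte, immune, fibroblast and endothelial genes were also at 0, of 11, 17, 14 and 13 genes, and so were 49 keratins. Lists of 1100 olfactory receptors, 352 vomeronasal receptors and 338 solute carriers were at 0 too, but for these the background is above 1 gene. Their median spans were 950, 960 and 30300.5 bp, and any shared region overlapped 3, 0 and 54 of them. The part of gene length in these counts was not tested. These lists describe where the mark lies, not which cells were in the sort, since expression was not measured.

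Regions between genes often lay next to such transcription factors. Of the 174 regions that overlapped no protein-coding gene, 44 (25.3%) had 1 of 216 listed developmental transcription factor genes as the nearest gene on either side. Of all 18547 gaps between protein-coding genes, 1.96% had one, or 4.51% of the bases in gaps, and for the 83 such regions with Ring1b and both marks the share was 30.1%. The 44 regions stood beside 33 different genes. The most enriched lay between Lhx1, a LIM homeobox gene of kidney and head, and Mrm1 (chromosome 11, 84636712 to 84646382), with ratios of 13.4 and 5.70 and 96359 bp to the nearest Ring1b or H2AK119ub peak. Next came regions beside Pdx1, the pancreatic homeobox gene (13.2 and 5.53), Sox1, a neural progenitor gene (12 and 5.75), Pax7, of muscle stem cells (13.7 and 5.02), Tbx3 (12.3 and 5.25) and Msx1 (11.8 and 5.34). All 6 were above the medians of 8.81 and 3.71. At the other end, the region beside Dlx6 had 5.95 and 2.02, and one beside Foxo1 had 6.42 and 2.1. These examples are the ends of the list by rank and were chosen after their values were seen.

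Some regions came in groups. Within 50 kb of each other, 65 of the 308 fell into 31 runs. The largest run held 4 regions over 136897 bp between Rbm19 and Lhx5, a LIM homeobox gene of the brain (chromosome 5, 120275591 to 120412487), with ratios of 8.18 to 10.3 in replicate 1 and 3.33 to 6.07 in replicate 2. A run of 3 lay at Cracr2a, a regulator of calcium channels in lymphocytes, with 4.54 to 7.08 and 2.26 to 3.97. The other 29 runs were pairs, among them those in Zfhx3, Ano4, Cdh22 and Tnik. On chromosome 4 the 37 regions were 21.1% of that chromosome's 175 shared H3K27me3 regions, and on chromosome 5 the 36 were 18.4% of 196, against 10.9% on all autosomes. The lowest share was 4.12% on chromosome 17, 4 of 97. Regions of a run share a locus, so the 308 are not independent of each other.

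The distance to the nearest Ring1b or H2AK119ub peak had a median of 46514 bp, against 151491 bp for promoter regions with H3K27me3 alone. It was 25702 bp without H3K27me3 replicate 1, and 119500 bp where peaks with a deposited p above 0.001 were left out. Within 10 kb lay 70 of the 308 regions (22.7%), against 20 of 311 promoter regions (6.43%), and over 100 kb away lay 95 (30.8%), against 59.8%. The nearest H2AK119ub peak was closer than the nearest Ring1b peak in the medians, 60365.5 and 91010 bp. In promoter regions with H3K27me3 alone the order was reversed, 281444 and 203362 bp. The H2AK119ub lists cover 10.4 and 23.0 Mb in replicates 1 and 2, and the Ring1b lists 11.8 and 8.59 Mb. A larger list leaves shorter distances, and its part was not tested. The 70 regions within 10 kb had median ratios of 8.13 and 3.43, the 143 at 10 to 100 kb had 8.91 and 3.75, and the 95 beyond 100 kb had 9.04 and 3.94. The nearest regions had the lowest median in both replicates, but in each replicate the 3 medians lay within each other's interquartile ranges. Near regions had a median length of 5984 bp, against 5347 and 5402 bp farther out, but the lengths called in replicate 2 had another order, 3245.5 bp near and 2869 and 3374 bp farther out. Of the near regions, 30.0% overlapped a protein-coding gene, against 46.2% and 49.5%. Within 5 kb of another shared H3K27me3 region lay 69 of the 308 (22.4%), against 13.6% of the other shared regions. For 39 of these 69 that neighbour met a Ring1b or H2AK119ub peak. For 25 it was another of the 308, and for 5 a promoter region with H3K27me3 alone. Only 619 of all 2813 shared regions met no such peak, so the count of 39 does not set these neighbours apart.

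**Figure D5:**
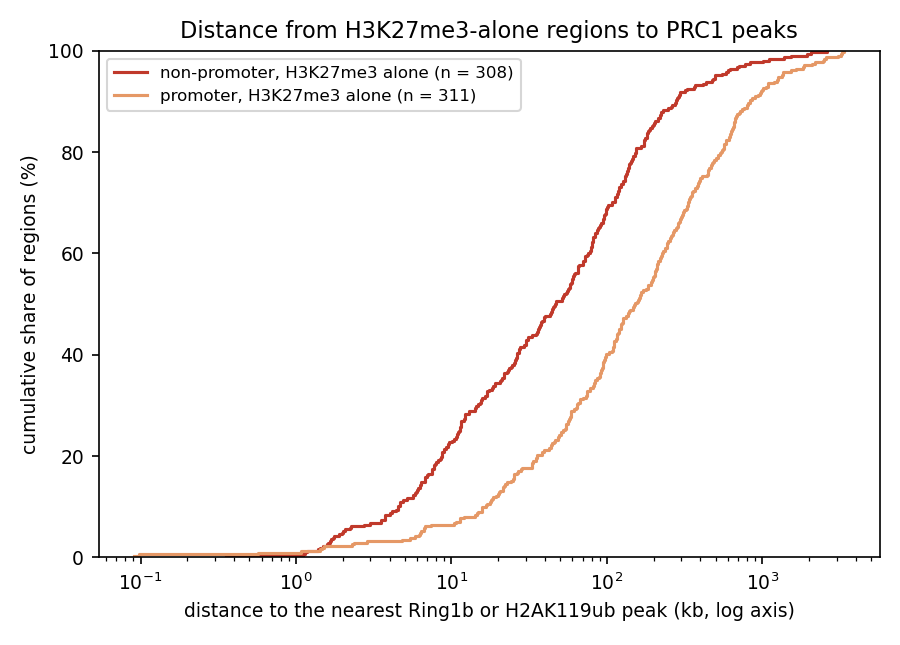
Cumulative share of regions (vertical axis, %) by distance in kb to the nearest Ring1b or H2AK119ub peak of any of the 4 lists (horizontal, log axis), for non-promoter (red) and promoter (orange) regions with H3K27me3 alone. The red curve lies to the left, with a median of 46514 bp against 151491 bp.

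The rule draws a line at an overlap of 1 bp, and the regions nearest to it had these values. Just inside it were the regions in Tgfb2 (357 bp from an H2AK119ub peak, ratios 7.42 and 2.76), between Adamts18 and Nudt7 (1115 bp, 7.69 and 2.51), between Ano1 and Fgf3 (1138 bp, 5.98 and 3.22) and at Tmprss11f (1182 bp, 7.47 and 3.28). Just outside it were regions between Foxo1 and Cog6 (389 bp shared with H2AK119ub replicate 2, ratios 4.99 and 2.25), between Cnksr3 and Ulbp1 (442 bp with Ring1b replicate 2, 25.9 and 8.94), between Ap3b1 and Tbca (505 bp with Ring1b replicate 1, 6.07 and 3.54) and between Sox1 and Spaca7 (506 bp with Ring1b replicate 2, 10.9 and 5.97). In all, 187 non-promoter regions met a peak of exactly 1 of the 4 lists, and in 127 of them it was H2AK119ub replicate 2. That list was the larger of its pair, with 5616 autosomal peaks over 23.0 Mb, against 3755 over 10.4 Mb in replicate 1. Without it there would be 435 such regions in place of 308. Absence of a peak is thus a statement about these lists, and a weaker signal below their thresholds was not measured.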

How the data were processed

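Peak lists of 6 ChIP-seq samples, 2 replicates each of Ring1b, H2AK119ub and H3K27me3, were read; groups and replicate numbers came from the sample titles. Per the file headers, each deposited row gives a peak's position, its maximum height (a coverage signal), counts of ChIP and input reads by strand, a p-value, a location class and gene names. Per the submitters' processing notes, the build was mm10 and the tools included MACS2 2.1.0, SAMtools 0.1.19, Bowtie2 2.2.3, Bowtie 1.1.1 and Trim Galore 0.4.1. Neither library totals nor the tool behind these lists is stated there. Read counts in the authors' peaks are therefore unscaled and are not library depths. Autosomal H3K27me3 peaks numbered 5793 and 3048.

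Regions, overlaps, distances and ChIP to input ratios were computed in Python 3.11.15 with pandas 2.3.3, and checked on simulated intervals. Gene spans, starts and sequences came from RefSeq (GRCm38.p6), which gives no exons in the table used. Gene names in the authors' rows were matched to symbols or single synonyms, 5703 of 6902. A gene's promoter counted as carrying a mark where a row of class promoter named it. No test was run: the rule used these lists, regions are not replicates, and 2 samples against 2 cannot give a two-sided exact permutation p below 0.333. Wilson intervals (95%) cover counting error only, and reads without molecular identifiers are not independent molecules.

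The regions and the 32 gene lists were chosen with earlier results of these data known. Regions and genes were named by rule: the 12 highest and 6 lowest by mean within-replicate rank of the ratio, the 12 longest, the 6 genes with most length inside, and up to 4 genes per list. Others are said to be chosen after their values were seen. Some regions or genes that the rule names are not reported here. Alternatives changed the p-value limit, the link between replicates, the distance to Ring1b and H2AK119ub peaks, the lists, the promoter definition, the pseudocount, the gene overlap and the chromosomes.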

Additional observations from a re-analysis of the deposited data

How the results depend on the processing

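Against 308 regions and 10.9% of shared regions, requiring a deposited p of at most 0.001 for peaks of all 3 antibodies gave 587 regions (20.9%), 205 genes in place of 120, 35 listed genes in place of 19, and a median distance to Ring1b and H2AK119ub peaks of 119500 bp in place of 46514 bp. By construction it removes Ring1b and H2AK119ub peaks, and 301 of the 308 regions were kept. The union lists gave 2122 regions (36.6%) of median length 3471 bp, with 36.4% in a protein-coding gene, 525 genes and 101 listed genes. That share is of all regions of the union H3K27me3 list, since no peak of both replicates was required there. Barring Ring1b and H2AK119ub peaks within 5000 bp gave a share of 9.70%. Taking promoters as RefSeq starts within 2000 bp gave 13.7%, with 53.1% in a gene, 190 genes and 34 listed genes; no start on chromosome 18 was in the table, so no region there could be a promoter. When a listed gene had to lie mostly inside the regions, 0 were counted.

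Leaving out each replicate of each antibody in turn gave 320 to 2105 regions, shares of 11.4% to 36.3%, median lengths of 3150 to 5894 bp, 36.4% to 43.9% in a gene, 122 to 522 genes, 19 to 101 listed genes and median distances of 25702 to 57146 bp. H3K27me3 replicate 2 set the upper end of the region count (2105), since replicate 1 alone called most of the regions, and leaving out H2AK119ub replicate 2 gave a share of 15.5%. Without H3K27me3 replicate 1, the median length was 3150 bp and the distance 25702 bp. Where 1 H3K27me3 replicate was left out, the share is of all regions of the other replicate and not of shared regions. The median ratio moved by less than its SD over replicates, 3.61, in all 13 alternatives, but that SD mostly holds the different scales of the replicates. Linking replicate peaks by most of the shorter peak kept 307 of the 308 regions. No paired analysis was possible because the results come from no test. Depth limits single ratios through input counts of 13 to 359 reads per region.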

Other observations

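On chromosome X, which the rule leaves out, 13 of 73 shared H3K27me3 regions were outside promoters and free of Ring1b and H2AK119ub peaks. Their median length was 5731 bp, and their median ratios were 9.34 in replicate 1 and 3.46 in replicate 2, against 11.3 and 4.39 for all 73 shared regions there.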
